A study of Mus musculus with 2 samples.

Results

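The genes described here are 10 targets of serum response factor (Srf) that encode proteins of the smooth muscle contractile apparatus or proteins that bind actin filaments: Tagln, Acta2, Actg2, Cnn1, Cnn2, Tpm1, Tpm2, Myl9, Vcl and Flna. They were found by symbol, and all 10 were present once each among the 24532 genes of the expression table. Polyadenylated RNA of mouse embryonic stem cells (ESCs) had been sequenced from E14 and from E14-Sox2 TA/WT cells, here also called mutant cells, as 1 library each. E14 is an established mouse ESC line and was wild type for Sox2. The mutant cells derive from E14, and 1 of their Sox2 alleles carries T258A, the replacement of threonine at residue 258 by alanine, introduced with CRISPR/Cas9, while the other allele is wild type. The threonine is a site of O-GlcNAc, a sugar attached to nuclear and cytoplasmic proteins. Serum and leukemia inhibitory factor were used for E14, by the study's methods. The mutant line grew out from a single sorted cell, was kept in this medium with PD0325901 and CHIR99021, and was used after withdrawal of both inhibitors. Genotype, clone and culture history therefore cannot be told apart.

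Srf binds a DNA element named the CArG box and drives genes of the actin cytoskeleton and of muscle. Its cofactors, the myocardin-related factors Mrtfa and Mrtfb (genes Mkl1 and Mkl2), are held back by unpolymerized actin and enter the nucleus when actin assembles into filaments, so that the output of Srf follows the state of the cytoskeleton and the spreading of cells. Myocardin (Myocd) is the Srf cofactor of the cardiac and smooth muscle lineages. Most of the genes examined are known as markers of smooth muscle, but several of them are also transcribed in other cells that carry stress fibers or focal adhesions.

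The libraries held 60263536 reads assigned to genes in E14 and 44609228 in the mutant cells. Levels are given as TPM, which is scaled to transcript length and to a common library sum, and differences as the log2 ratio of TPM in the mutant cells over E14. Since each genotype had 1 library, the spread between replicates is unknown and tests were not run. The 95% intervals are exact Clopper-Pearson intervals from the read counts (Poisson intervals for a single level) and cover counting error only. Following the study's methods, a gene was counted when its TPM was at least 10 in at least 1 library and the libraries differed more than 2-fold. All 10 genes of a list of embryonic stem cell markers reached a TPM of 10, and Pou5f1, the gene for Oct4, stood at 1725 in E14 and 1759 in the mutant cells. Of the 10, 5 had higher TPM and 5 lower, among the latter Sox2 (372.5 and 274.2) and Nanog (526.9 and 251.3). The sign changed with the scaling of the libraries for 3 of the 10. These were Pou5f1 (log2 ratio 0.03, as low as -0.12), Esrrb (0.10, as low as -0.04) and Fbxo15 (0.07, as low as -0.07). In such bulk RNA, more cells of a type and more RNA per cell cannot be told apart.

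Because these genes are grouped as Srf targets, their promoters were read for CArG boxes. The reference table of RefSeq promoters (GRCm38.p6, 250 bases before to 50 after an annotated start) held 8 of the 10 genes and had no entry matched for Tagln and Actg2. A CArG box is written as CC, then 6 bases that are each A or T, then GG, and the pattern reads the same on both strands. Exact boxes were present in the windows of Cnn2, Vcl and Myl9, that is in 3 of 8, against 1.63% of all 32851 promoters of the same length and 1.28% of the 9309 promoters of genes past the TPM filter. Boxes in which 1 of the 6 central bases is C or G were present in Acta2 and Myl9, against 8.50% of all promoters. The bases of the windows of Cnn2, Vcl and Myl9 that lie upstream of every annotated transcript of the gene are printed because they hold the boxes, which are in capitals.

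Cnn2, forward strand, chr10:79988350-79988583: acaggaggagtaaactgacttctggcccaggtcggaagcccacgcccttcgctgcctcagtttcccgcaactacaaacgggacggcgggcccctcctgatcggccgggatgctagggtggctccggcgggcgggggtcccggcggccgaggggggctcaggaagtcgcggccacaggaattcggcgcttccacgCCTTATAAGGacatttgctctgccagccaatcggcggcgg
Vcl, forward strand, chr14:20929148-20929382: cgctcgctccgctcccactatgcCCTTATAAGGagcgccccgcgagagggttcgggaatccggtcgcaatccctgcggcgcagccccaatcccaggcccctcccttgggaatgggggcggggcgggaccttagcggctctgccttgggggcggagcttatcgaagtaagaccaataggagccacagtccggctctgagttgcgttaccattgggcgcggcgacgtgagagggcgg
Myl9, forward strand, chr2:156775214-156775407: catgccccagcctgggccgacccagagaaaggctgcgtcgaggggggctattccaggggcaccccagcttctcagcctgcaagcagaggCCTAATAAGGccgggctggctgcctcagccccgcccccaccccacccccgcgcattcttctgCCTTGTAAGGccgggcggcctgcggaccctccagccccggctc

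Counted from the annotated start to the first base of the box, the exact boxes began 56 bases before the start in Cnn2, 227 in Vcl and 161 in Myl9, and Cnn2 and Vcl hold the same letters, CCTTATAAGG. Myl9 has a further box with 1 deviating base, CCTTGTAAGG, at 99. Acta2 had no exact box but carried CCCTATATGG at 84 and CCTTGTTTGG at 34 bases before its start. Srf itself, whose gene is a known Srf target, held exact boxes at 82 and 62 bases before its start, which lies 2105 bases inside the RefSeq gene. The windows of Cnn1, Tpm1, Tpm2 and Flna held neither form. The starts used lie inside the RefSeq gene for 7 of the 8 genes, by 15 bases in Vcl, 29 in Tpm2, 32 in Cnn1, 56 in Myl9, 212 in Acta2, 459 in Tpm1 and 3320 in Flna, so windows at other starts of these genes were not searched. These matches describe the sequence only.

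In all, 9 of the 10 genes were higher by TPM in the mutant cells, and the counting interval of each of the 9 lay above no change. Across all 13269 genes with a mean TPM of 1 or more, 53.2% were higher. Past both the filter and 2-fold, 5 of the 10 genes were higher (Tagln, Acta2, Myl9, Tpm1 and Flna), against 4.17% of the 9094 genes past the filter. The 10 genes were chosen with earlier results of these data known, so this contrast is not independent of their choice. The counting interval lay wholly above 2-fold for the same 5 genes, against 3.23% of all genes past the filter. The filter was passed by 8 of the 10, and none of these was more than 2-fold lower, against 4.07% of all genes past the filter. With 8 genes, a count of none is close to that share. Actg2, with 17 reads in E14 and 0 in the mutant cells, was under the filter. The median log2 ratio of the 9 genes with a mean TPM of 1 or more was 1.28, beside 0.04 for all genes. Other scalings put the median of all genes between -0.10 and 0.02, and that of the 9 genes between 1.002 and 1.26.

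The summed TPM of the 10 genes went from 343.4 to 995.2, or 2.90-fold. Tpm1 alone made up 47.6% of this gain, Flna 18.0% and Tagln 16.0%, and without Tpm1 the sum still differed 2.52-fold.

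**Figure D1:**
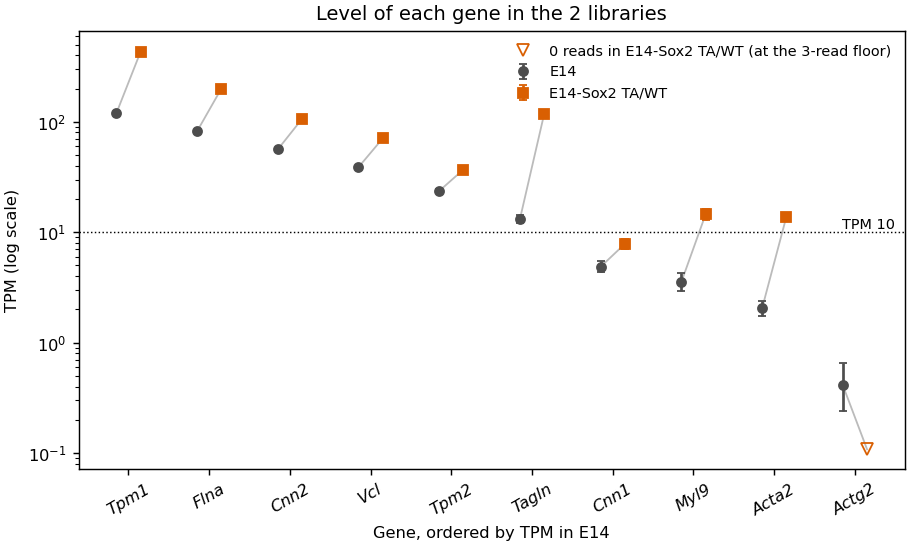
TPM of the 10 Srf target genes (log axis) in E14 cells (gray circles) and the mutant cells (orange squares), with 95% Poisson counting intervals and 1 library per genotype. The orange point lies above the gray one for 9 genes, and Actg2, with 0 reads in the mutant cells, is drawn at its 3-read floor.

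Among the contractile genes, Tagln differed most. It encodes transgelin (SM22-alpha), a small protein that binds and bundles actin filaments and is an early marker of smooth muscle. Its level was a TPM of 13.1 in E14 cells (657 reads) and 117.3 in the mutant cells (3927 reads), an 8.93-fold difference (log2 ratio 3.16, 3.04 to 3.28). By ratio it ranked 12 among the 9094 genes past the filter. The order of levels also moved: Tagln was the sixth of the 10 genes by TPM in E14 and the third in the mutant cells, above Cnn2 and beyond their counting intervals. The gene lies on chromosome 9 (45929628 to 45936058, GRCm38). On the opposite strand, transcripts of Gm48529 (not analysed here) or Pcsk7 hold 48.3% of the 50-base windows of its transcript. Gm48529 alone holds 44.5%. Since the handling of strand is not given in the sources used here, reads of these genes cannot be told apart. Pcsk7 had a TPM of 6.48 in E14 and 7.97 in the mutant cells. The summed reads of Tagln and Pcsk7, scaled to the library totals, gave a log2 ratio of 2.08, where Tagln alone was at 3.01. Gm48529 is not in this sum, as no values were found under that symbol.

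Acta2 and Actg2, the smooth muscle actin genes, did not move together. Acta2 encodes alpha-smooth muscle actin, the isoform of vascular smooth muscle and of myofibroblasts, and stood at a TPM of 2.05 in E14 cells (166 reads) and 13.7 in the mutant cells (746 reads). This is a 6.71-fold difference (log2 ratio 2.75, 2.50 to 2.998), rank 20 among the genes past the filter. Actg2 encodes the enteric gamma-smooth muscle actin and was close to absent, with 17 reads in E14 cells (TPM 0.410) and 0 in the mutant cells. Against a floor of 3 reads it was at least 3.80-fold lower, and it was too low in both libraries to be counted. Of the windows of 50 bases in the Acta2 transcript, 0.352% occurred in another gene, and none did for Actg2, so the actin genes have little sequence in common at this length.

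Myl9 encodes the regulatory light chain of smooth muscle myosin, whose phosphorylation starts contraction. It had a TPM of 3.54 in E14 cells (121 reads) and 14.5 in the mutant cells (332 reads), a 4.09-fold difference (log2 ratio 2.03, 1.73 to 2.34). Acta2 and Myl9 passed the filter only through the mutant cells, and a gene that enters in this way is more likely to lie past 2-fold, as 31.7% of the 508 such genes did, against 2.70% of the 8086 genes that reached the minimum in both libraries. Of the 6 Srf targets that reached it in both, 3 were more than 2-fold higher. In the mutant cells Myl9 and Acta2 were adjacent in the order of levels, and their counting intervals overlapped (13.0 to 16.1 and 12.8 to 14.8). In E14 no neighbors in the order overlapped.

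The calponin genes differed less. Calponins bind actin and tropomyosin, and calponin 1 is largely restricted to smooth muscle, whereas calponin 2 is found in many cell types. Cnn1 had a TPM of 4.86 in E14 cells (305 reads) and 7.84 in the mutant cells (329 reads), with a log2 ratio of 0.69 (0.46 to 0.92), and was under the filter in both libraries. Cnn2 stood at 56.1 (3151 reads) and 106.0 (3988 reads), with a log2 ratio of 0.92 (0.85 to 0.99), just short of the threshold. With the dependence on GC content and length removed, its log2 ratio was 1.002, just past 2-fold.

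Tropomyosins run along actin filaments and set which other proteins can bind them. Tpm1 was the most abundant of the 10 genes in both libraries, with a TPM of 119.0 in E14 cells (5556 reads) and 429.2 in the mutant cells (14717 reads). It was 3.61-fold higher (log2 ratio 1.85, 1.81 to 1.90), rank 62 among the genes past the filter. Tpm2, which is best known from muscle, went from a TPM of 23.6 (1728 reads) to 37.0 (1739 reads), with a log2 ratio of 0.65 (0.55 to 0.74). The read numbers of Tpm2 were thus nearly equal, in libraries of unequal totals.

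Vcl and Flna link actin filaments to the cell membrane and to each other. Flna encodes filamin A, a large protein that crosslinks actin filaments and binds integrins, and was found at a TPM of 81.9 in E14 cells (21529 reads) and 198.9 in the mutant cells (35043 reads). It was 2.43-fold higher (log2 ratio 1.28, 1.26 to 1.31), rank 189 among the genes past the filter. This call depended on sequence content and length: with the dependence on GC content and length removed the log2 ratio was 0.98, short of 2-fold. Vcl encodes vinculin, which reinforces focal adhesions and adherens junctions under tension, and stood at 38.8 (6387 reads) and 70.6 (7795 reads), with a log2 ratio of 0.87 (0.82 to 0.91). On the opposite strand, transcripts of Ap3m1 share 39.2% of the 50-base windows of the Vcl transcript. Ap3m1 had a TPM of 40.8 and 44.5 (log2 ratio 0.13). The reads of Vcl and Ap3m1 cannot be told apart without strand. Summed and scaled to the library totals, they gave a log2 ratio of 0.42, where Vcl alone was at 0.72 on that scale.

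**Figure D2:**
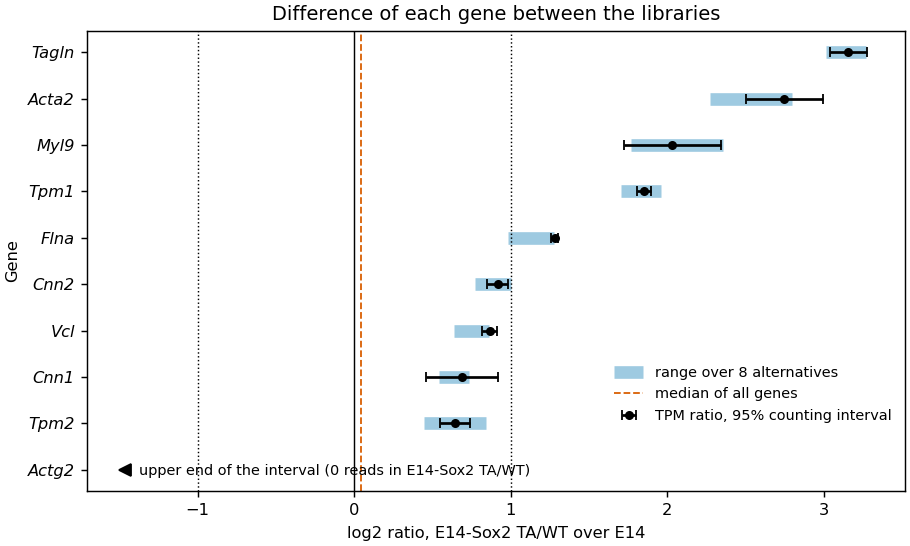
Log2 ratio of TPM (E14-Sox2 TA/WT over E14) for each gene with its 95% counting interval (black) and the range over 8 other ways of computing it (blue bands). Dotted lines mark 2-fold and the dashed line the median of all genes, 0.04; the 4 genes from Tagln to Tpm1 stay past 2-fold over the whole band, and Flna reaches 0.98 at its lower end.

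**Figure D3:**
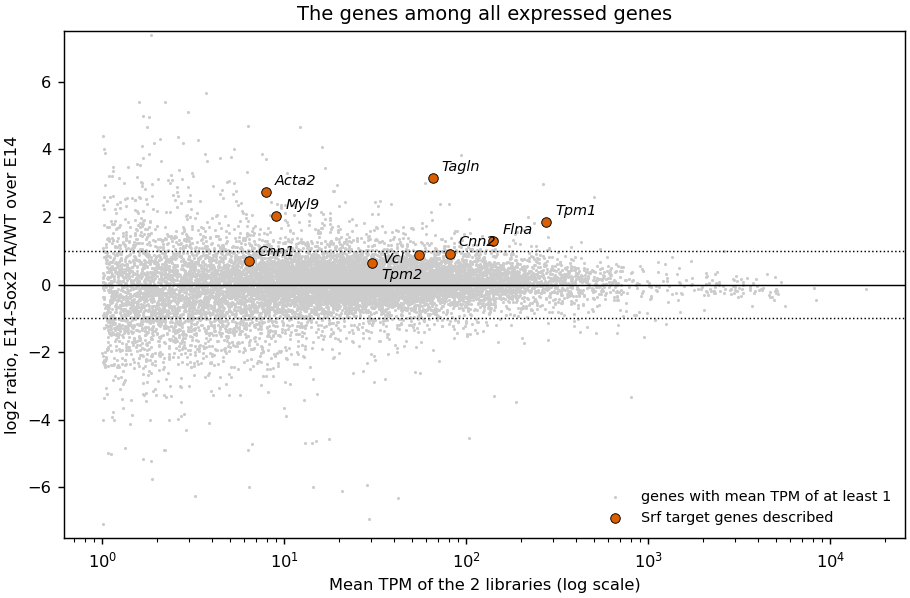
Log2 ratio against the mean TPM of the libraries (log axis) for all genes with a mean TPM of 1 or more and finite ratio (gray) and the Srf target genes with reads in both libraries (orange). The 9 orange points lie above zero over a wide range of levels, from Cnn1 at a mean TPM of 6.35 to Tpm1 at 274.1.

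The genes belong to small families whose other members are transcribed in most cells, so the make-up of each family was computed from TPM, with counting intervals by the delta method. Tagln made up 3.55% (3.29% to 3.83%) of the summed TPM of the transgelin genes in E14 and 27.1% (26.4% to 27.9%) in the mutant cells, while Tagln2, the transgelin of nonmuscle cells, went from 94.9% to 71.0%. The sum of the transgelin genes differed only 1.17-fold. Tagln2 itself had a TPM of 351.1 in E14 and 307.0 in the mutant cells (log2 ratio -0.19), and its ratio reached 0.00 with the dependence on GC content and length removed.

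Within the tropomyosins, Tpm1 went from 20.4% (19.9% to 20.8%) to 38.8% (38.4% to 39.3%) of the summed TPM. Tpm3, which supplies nonmuscle isoforms, led in E14 with 53.4% and stood at 37.6% in the mutant cells, below Tpm1. Tpm2 stayed a minor part (4.04% and 3.34%), and Tpm4 made up 22.2% and 20.2%. All of the tropomyosin genes together differed 1.89-fold.

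The smooth and striated muscle actins Acta1, Acta2, Actc1 and Actg2 had a summed TPM of 4.86 in E14 and 21.8 in the mutant cells, a 4.49-fold difference. Acta2 was 42.1% (36.6% to 47.8%) of this sum in E14 and 62.9% (59.6% to 66.2%) in the mutant cells. Next to the cytoplasmic actins, however, these genes were minute: Acta2 was 0.0897% of the summed TPM of the 6 actin genes in E14 and 0.356% in the mutant cells. The cytoplasmic actin genes Actb and Actg1 were themselves higher, with a TPM of 1299 and 2117 for Actb (log2 ratio 0.70) and 976.7 and 1721 for Actg1 (log2 ratio 0.82), both short of 2-fold. Only with the dependence on GC content and length removed did Actg1 pass 2-fold (1.03).

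In the remaining families the shares moved by fewer percentage points. Cnn2 went from 8.55% to 14.4% of the calponin genes, with Cnn3 at 90.7% and 84.6%. Myl9 made up 0.638% (0.534% to 0.762%) and 1.81% (1.63% to 2.01%) of the regulatory light chain genes, next to Myl12a and Myl12b, which serve nonmuscle myosin.

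**Figure D4:**
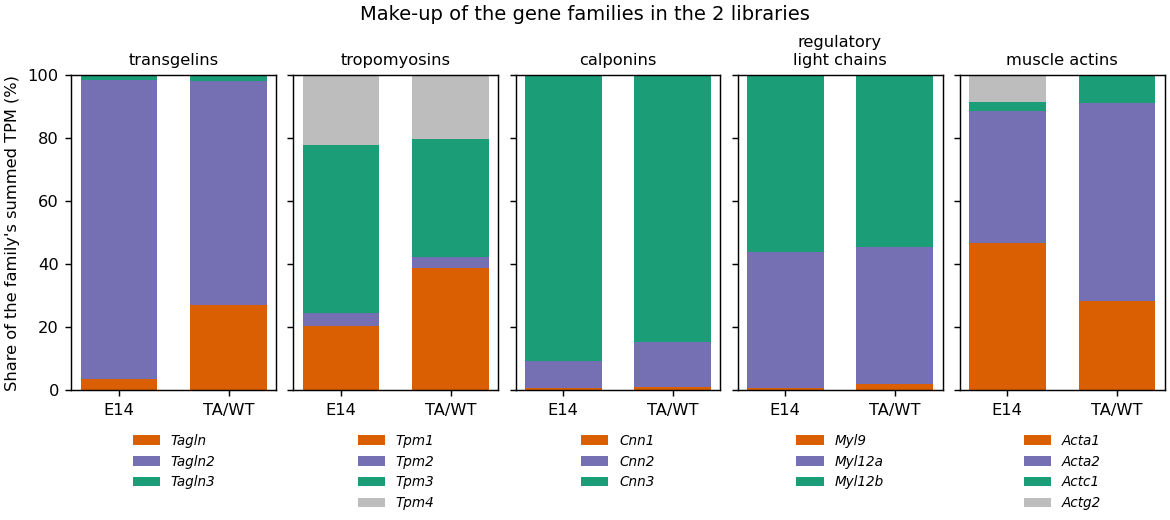
Share of each gene (%) in the summed TPM of its family, for E14 and the mutant cells (TA/WT), 1 library each. Tagln goes from 3.55% to 27.1% of the transgelins and Tpm1 from 20.4% to 38.8% of the tropomyosins.

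The regulators of these genes were looked at next. Srf had a TPM of 17.9 in E14 cells (2307 reads) and 26.4 in the mutant cells (2282 reads), a log2 ratio of 0.56 (0.48 to 0.65). Mkl1 stood at 17.1 and 21.9 (log2 ratio 0.36) and Mkl2 at 4.95 and 7.86 (0.67). Myocd was barely detected, with 11 and 5 reads, and its interval (-2.50 to 1.02) spanned no change. Of 10 genes listed as Srf, its cofactors and their regulators, 3 passed the filter and none of these 3 was more than 2-fold higher or lower. Under the filter, Elk3 (log2 ratio 1.17), Elk4 (1.05), Fhl2 (1.45) and Mical2 (1.35) were more than 2-fold higher, at a TPM of at most 6.35. The counting intervals of Elk3 (0.98 to 1.36), Elk4 (0.85 to 1.26) and Fhl2 (0.996 to 1.92) reached below 2-fold. Elk4 was as low as 0.86 over the scalings of the libraries. The share of all genes under the filter that lay past 2-fold was not computed. Of the 9 with a mean TPM of 1 or more, all had higher TPM, from Elk1 (0.07) to Fhl2 (1.45), with a median of 0.67. The signs for Elk1 (as low as -0.07) and Scai (0.11, as low as -0.58) changed with the scaling of the libraries.

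Of 26 other Srf and Mrtf target genes, 20 passed the filter, of which 2 were more than 2-fold higher and none was more than 2-fold lower. Among all 9094 genes past the filter, 4.17% were more than 2-fold higher and 4.07% more than 2-fold lower. The 2 higher targets were Zyx (log2 ratio 1.62), which encodes the focal adhesion protein zyxin, and Flnc (1.55). Flnc encodes filamin C of muscle cells and had a TPM of 8.01 and 23.4. Under the filter, the muscle actin genes Acta1 (log2 ratio 1.44) and Actc1 (3.89, 7 and 60 reads) were also more than 2-fold higher. No share of all genes was computed for genes under the filter. The median of the 25 target genes with a mean TPM of 1 or more was 0.56, with 20 higher and 5 lower, and it ran from 0.42 to 0.55 over the other scalings, which changed the sign of 5 of the genes. Among 19 focal adhesion partners of vinculin, 16 passed the filter, of which Zyx, Tes (1.38) and Bcar1 (1.30) were more than 2-fold higher, as was Parva (1.47) under the filter. The median of the 18 partners with a mean TPM of 1 or more was 0.51.

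Genes for myosin and its phosphorylation differed less. Of 14 genes for myosin subunits and light chain phosphorylation, 11 passed the filter. The 12 with a mean TPM of 1 or more had a median of 0.32. Among these only Ppp1r14a, which encodes the smooth muscle inhibitor of myosin phosphatase CPI-17, was past 2-fold, and it was lower (TPM 50.7 and 21.6, log2 ratio -1.23), though short of 2-fold with the dependence on GC content and length removed (-0.85). Of the 14 listed relatives of the genes described, 11 passed the filter. Of these 1, Flnc, was more than 2-fold higher, against 4.17% of all genes past the filter. Acta1 and Actc1 were more than 2-fold higher under the filter. That list also held Vill, which belongs to the villin family. The median of the relatives was 0.52.

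**Figure D5:**
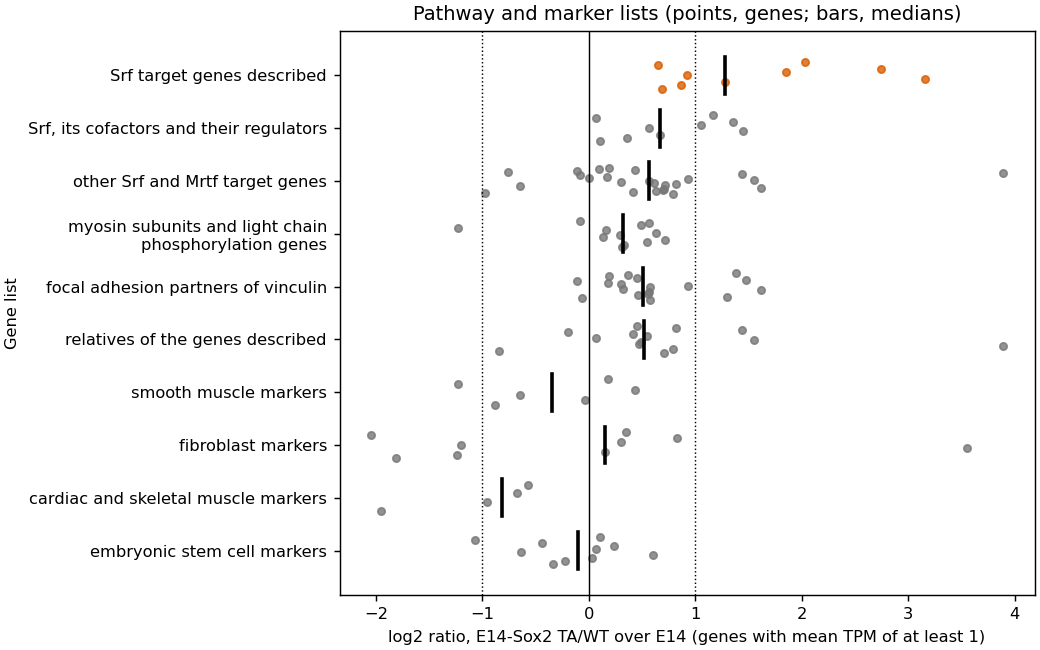
Log2 ratio of TPM (E14-Sox2 TA/WT over E14) of the genes with a mean TPM of 1 or more in each list (points), with the list's median (bars) and 2-fold (dotted lines). The Srf target genes described (orange) have a median of 1.28, other Srf and Mrtf targets 0.56, and smooth muscle markers other than the genes described -0.34.

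The lists of cell type markers were read beside these values. Smooth muscle cells are defined by Myh11, the smooth muscle myosin heavy chain, which had 52 reads in E14 and 2 in the mutant cells. The smooth muscle list leaves out the 10 genes described, most of which are also known as markers of smooth muscle. Of those 10, 9 had higher TPM and 5 were more than 2-fold higher past the filter. Of the 12 listed smooth muscle markers, Myh11 included, 6 had a mean TPM of at least 1. None of the 12 was more than 2-fold higher. The filter was passed by 4 of the 12, and 1 of these, Ppp1r14a, was more than 2-fold lower. Among all genes past the filter, 4.07% were more than 2-fold lower. The median of the 6 was -0.34. The summed TPM of the 12 was 133.0 in E14 and 105.6 in the mutant cells, or 82.3 and 84.0 without Ppp1r14a. Of 17 fibroblast markers, 2 passed the filter, and 1 of these, Thy1, was more than 2-fold lower (TPM 40.1 and 11.4). Of the 9 with a mean TPM of 1 or more, 5 were higher and 4 lower, with a median of 0.15 that ran from -0.07 to 0.13 over the other scalings. Their summed TPM was 75.2 and 49.9, or 35.1 and 38.5 without Thy1, and the fibroblast genes Dcn, Lum, Postn and Fap had 0 reads in both libraries. Of 14 cardiac and skeletal muscle markers, 1 passed the filter, and the summed TPM was 33.7 and 15.8. All 4 with a mean TPM of 1 or more were lower, from Ryr2 (log2 ratio -0.57) to Myl7 (-1.95). This list leaves out the striated muscle actin genes Acta1 (log2 ratio 1.44) and Actc1 (3.89, 7 and 60 reads), which were higher. Nppa had 0 reads in both libraries. Without Ppp1r14a and Thy1, the genes of greatest fall, the smooth muscle and fibroblast sums were not lower in the mutant cells. Such an omission lifts the mutant sum relative to E14 by construction, and genes of greatest rise were not left out in turn. Without Tnni3, its gene of greatest fall, the cardiac and skeletal muscle sum was 18.3 in E14 and 6.08 in the mutant cells. Other markers were lower as well. Of the 6 smooth muscle markers with a mean TPM of 1 or more, 4 were lower and 2 higher. Des was among the lower ones (TPM 22.5 and 12.3, log2 ratio -0.88). Of the 9 such fibroblast markers, 4 were more than 2-fold lower and 1 was more than 2-fold higher. Among single fibroblast genes, Col3a1 (15 and 151 reads), Col1a2 (43 and 109 reads) and S100a4 (4 and 32 reads) were higher. So was Col5a1 (2368 and 2809 reads, log2 ratio 0.82). Pdgfra (1280 and 218 reads), Pdgfrb (1151 and 327 reads) and the collagen gene Col6a2 (273 and 82 reads, log2 ratio -1.20) were lower. For the collagen genes Col1a1 (log2 ratio 0.15, -0.05 to 0.35) and Col6a1 (-0.31, -0.78 to 0.15), the interval spanned no change. The part of these fibroblast genes in the levels of the 10 genes was not tested. Of the 10 ESC markers, 1 (Nanog, log2 ratio -1.07) was more than 2-fold lower. The median of the 10 was -0.10 and ran from -0.24 to -0.10 over the other scalings. Their summed TPM was 12380 in E14 and 9397 in the mutant cells, or 5503 and 4968 without Dppa5a.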

How the data were processed

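RNA-seq libraries of polyadenylated RNA from E14 and E14-Sox2 TA/WT cells (1 each) were analyzed from the deposited gene table (mm10). Read counts deposited by the authors were unnormalized, FPKM deposited by the authors was scaled to transcript length and library size, and TPM deposited by the authors summed to 993247 and 994155. The submitters' processing notes name bcl2fastq 2.20.0, Trimmomatic, HISAT2 2.1.0 and StringTie 2.1.3b without roles. Strand and multiply mapped reads are not given in the sources used here, which affects overlapping genes. All columns of values were used.

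Ratios of TPM were taken without a pseudocount and counting intervals were computed with scipy 1.17.1. The interval code was tested on simulated data. Genes at or under 3 reads were set against that floor. Medians used genes of mean TPM 1 or more. The genes, the 9 other lists (from general knowledge) and the rules were chosen with earlier results of these data known. Named were the 10 genes and, per list, those past 2-fold, else the highest and lowest, plus Srf, Mkl1, Mkl2, Myocd, Actb, Actg1 and markers at 0 reads; other relatives, neighbors and marker genes were named after their values were seen. Alternatives were other filters, thresholds, pseudocounts, TMM (edgeR 4.0.16), size factors (DESeq2 1.42.0), library totals, FPKM, centering, and removal of trends on GC content and length (20 bins each, GENCODE M21 transcripts, matched for 23972 genes). Overlap was counted in windows of 50 and 100 bases. Some genes are not reported here and were left out of the lists.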

Additional observations from a re-analysis of the deposited data

How the results depend on the processing

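Over the other scalings and pseudocounts, 49 of 74 log2 ratios of single genes stayed within the counting interval, 25 left it and 0 called ones changed sign. The number more than 2-fold higher (5) was 3 with a TPM minimum of 20 or a mean TPM minimum of 10, and 8 at 1.5-fold, as fewer or more genes enter by construction; it was 4 at 3-fold and 5 under each scaling, although removal of the GC and length trend put Cnn2 in and Flna out. The number more than 2-fold lower was 1 without a TPM filter, through Actg2. The median log2 ratio (1.28) was 1.24 with TMM or centering, 1.26 with size factors, 1.14 with library totals or FPKM, 1.002 with the trend removed, and 1.10 with a mean TPM minimum of 10 or without a filter. Reads summed over near-identical copies gave no value, as no gene here has such a copy in the transcripts. The sums of Tagln with Pcsk7 and of Vcl with Ap3m1 were chosen after seeing the data. No paired analysis was possible because each genotype has 1 library. At this depth, Actg2 (17 and 0 reads) and Myocd (11 and 5 reads) limit what can be said of them.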

Other observations

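The table allows a look at the transcripts behind Tpm1, which makes many isoforms by alternative promoters and splicing. The number of reads per unit of FPKM is proportional to the transcript length that the authors' quantification used, so its change between libraries, taken relative to genes with a single transcript, gives the change in mean length. For Tpm1, with 10 transcript IDs, the implied mean length was 9.57% longer in the mutant cells, and 74 of 4176 genes with several transcript IDs and at least 100 reads in each library (1.77%) had a larger increase. For Tpm2, with 3 transcript IDs, it changed by -4.05%, and 114 of these genes (2.73%) had a larger decrease. The middle 90% of these genes ran from -2.36% to 3.42%. Flna, with 2 transcript IDs, moved by -0.0122%. Which isoforms changed was not tested, since the table gives 1 value per gene.

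The positions of the genes were also considered. Tagln, Tpm1 and Cnn1 lie on chromosome 9, whose 748 genes with a mean TPM of 1 or more had a median log2 ratio of 0.00. The chromosome medians of the other genes ran from -0.02 (chromosome 6, Actg2) to 0.15 (chromosome X, Flna). The 10 nearest such genes, 5 on each side, had a median of 0.31 around Tagln, with 0.74 the highest, and 0.50 around Acta2, where they ran from -1.14 to 1.24. Around Tpm1 their median was -0.14, around Myl9 0.10 and around Flna 0.32. The part of copy number or neighborhood in the ratios was not tested.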
